A study of Mus musculus with 3 samples.

Results

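Inflammasome and NOD-like receptor genes were described in RNA-seq of 3 sorted mouse cell populations. The set comprised 10 genes chosen by symbol, Nlrp3, Nlrc4, Naip5, Aim2, Mefv, Pycard, Casp1, Casp4, Nod1 and Nod2, out of 23234 genes listed in each library, and all 10 had a row. Double-positive cells (DP) were CD45+Ly6G+SiglecF+ cells sorted from the nose 2 days after lipopolysaccharide (LPS, a component of the bacterial outer membrane). Nasal neutrophils were CD45+Ly6G+SiglecF- cells sorted from the nose 1 day after LPS. Blood neutrophils were CD45+Ly6G+SiglecF- cells sorted from peripheral blood 1 day after LPS. All mice were wild-type C57BL/6J, 6 to 15 weeks old, and all had received LPS through both nostrils (10 µg, given in a volume of 10 µL of phosphate-buffered saline), so no library came from untreated animals. Each population gave 1 library. No value below therefore has a replicate error, and no difference was tested. The number of animals behind a library is not given in the sources used here.

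Inflammasomes are protein complexes that assemble in the cytosol when a sensor meets a microbial product or a sign of cell damage. The sensor recruits the adaptor ASC, encoded by Pycard, which gathers caspase-1, and caspase-1 then cleaves the precursors of IL-1 beta and IL-18 and opens the pore-forming protein gasdermin D. Caspase-11, which the mouse gene Casp4 encodes, binds LPS in the cytosol directly and cleaves gasdermin D without ASC. NOD1 and NOD2 are related receptors for fragments of bacterial peptidoglycan and signal through the kinase RIPK2. In neutrophils these pathways are known for IL-1 beta release and for defence against bacteria that reach the cytosol.

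Values are FPKM, fragments mapped to a gene scaled by transcript length and by the mapped fragments of the library. This scaling does not correct for differences in RNA make-up between libraries. The values summed to 637561 FPKM in DP, 620230 in nasal and 663027 in blood neutrophils. Between genes, levels also depend on the annotation used, which is not stated. Levels are set side by side below with these limits. Ratios are differences of log2(FPKM + 1), which understates the ratio of low genes, and 4-fold (2 on the log2 scale) was the line for calling a difference. Ratios were read for the 10719 genes with a mean of 1 FPKM or more over the 3 libraries, called the tested genes below although no statistical test was run. Of the 10 genes, 9 passed, each at 1 FPKM or more in every library, and Nlrc4 did not. A pile-up of genes at a low value, taken as 1 fragment, put 1 FPKM in a transcript of 1 kb at about 55 fragments in DP. The same reading gave 13 in nasal and 54 in blood neutrophils, so low values are least precise in nasal neutrophils. Neutrophil transcripts were present in all 3 libraries. The 10 neutrophil markers summed to 12738 FPKM in DP, 54286 in nasal and 78447 in blood neutrophils. S100a8 stood at 7656 FPKM in DP and 29818 FPKM in nasal neutrophils and had a listed 0 in blood neutrophils, while its partner S100a9 was at 52238 FPKM in blood neutrophils, so a listed 0 can be a failed estimate. The eosinophil marker Epx was at 0 in all 3 libraries, and the 7 eosinophil markers summed to 3.21, 14.2 and 6.86 FPKM in the DP, nasal and blood libraries. In such bulk libraries fewer cells of a type and less RNA per cell cannot be told apart.

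Nlrp3 and Casp1 were the members that differed by 4-fold or more in a comparison. Nlrp3, the sensor that responds to potassium efflux and many kinds of damage, stood at 23.4 FPKM in DP, 378.4 in nasal and 37.7 in blood neutrophils. It was thus high in nasal neutrophils and lower in the other 2 libraries. Among the 10719 tested genes it held rank 3116 in DP, 221 in nasal and 1556 in blood neutrophils, counted from the most abundant. Its log2 ratio was -3.96 for DP over nasal neutrophils, 3.29 for nasal over blood neutrophils and -0.66 for DP over blood neutrophils. The first and second of these share the nasal neutrophil library and are not independent. In DP against nasal neutrophils 0.448% of tested genes had a lower ratio, and in nasal against blood neutrophils 4.22% had a higher one.

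**Figure D1:**
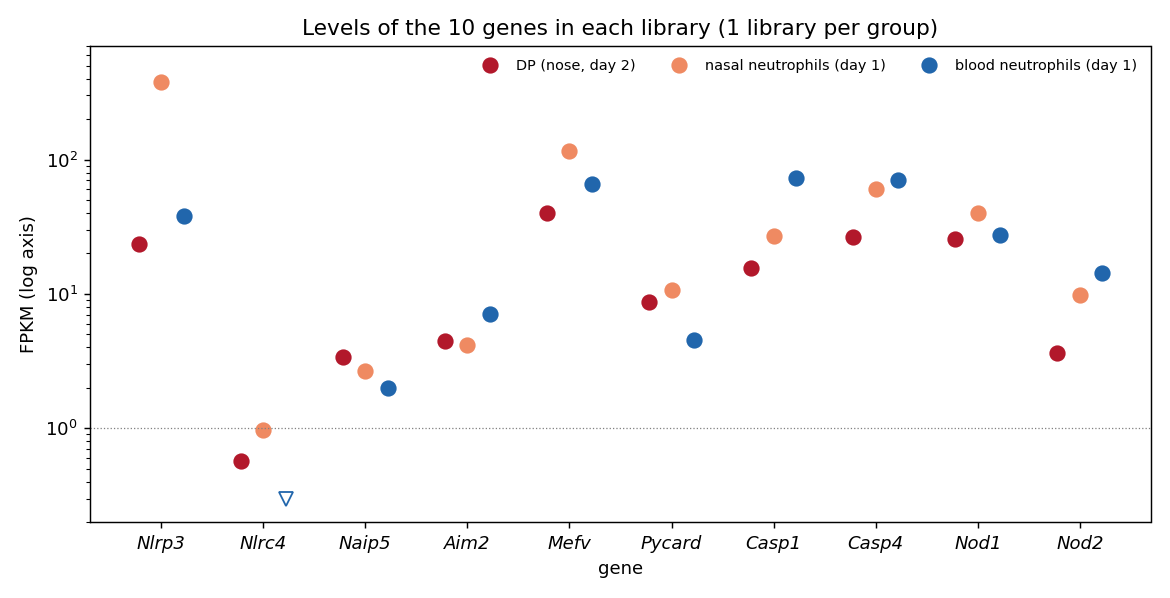
FPKM (log axis) of each gene in the DP, nasal neutrophil and blood neutrophil libraries, 1 point per library, with the dotted line at 1 FPKM and an open triangle for a value listed at 0. Nlrp3 reached 378.4 FPKM in nasal neutrophils and 23.4 and 37.7 in DP and blood neutrophils, while Casp1 was highest in blood neutrophils at 73.4.

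The bases upstream of the start sites of 3 genes are shown because Nlrp3 and Casp1 carried the 4-fold differences and Casp4, the neighbour of Casp1 on the same chromosome, did not. Each run is the 250 bases before a RefSeq start on GRCm38.p6, 5′ to 3′ on the plus strand, which is the strand of all 3 genes. The reads were aligned to another build, mm9. Capitals mark matches to the kappaB motif, the site bound by NF-kappaB.
Nlrp3, first start, chr11:59541319-59541568: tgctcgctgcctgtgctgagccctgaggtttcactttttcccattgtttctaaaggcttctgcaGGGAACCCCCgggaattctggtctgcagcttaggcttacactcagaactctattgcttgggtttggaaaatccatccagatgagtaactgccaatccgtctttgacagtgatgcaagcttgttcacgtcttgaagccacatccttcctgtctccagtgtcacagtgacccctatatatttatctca
Nlrp3, second start, chr11:59542436-59542685: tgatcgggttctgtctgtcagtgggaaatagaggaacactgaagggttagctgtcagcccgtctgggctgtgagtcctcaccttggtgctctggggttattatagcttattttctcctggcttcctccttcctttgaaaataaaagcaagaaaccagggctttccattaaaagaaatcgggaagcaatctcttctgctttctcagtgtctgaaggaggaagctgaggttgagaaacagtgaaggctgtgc
Casp1, chr9:5298267-5298516: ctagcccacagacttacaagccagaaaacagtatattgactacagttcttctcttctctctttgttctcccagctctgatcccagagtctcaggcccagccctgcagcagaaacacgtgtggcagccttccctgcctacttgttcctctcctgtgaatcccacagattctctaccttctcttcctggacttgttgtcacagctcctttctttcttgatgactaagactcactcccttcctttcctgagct
Casp4, first start, chr9:5308599-5308848: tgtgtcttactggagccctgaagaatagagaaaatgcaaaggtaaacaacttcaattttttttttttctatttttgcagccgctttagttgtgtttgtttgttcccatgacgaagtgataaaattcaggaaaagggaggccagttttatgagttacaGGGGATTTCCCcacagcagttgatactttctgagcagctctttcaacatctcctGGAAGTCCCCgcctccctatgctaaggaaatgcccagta
The first Nlrp3 window held 1 kappaB match, 186 to 177 bases before the start. The second Nlrp3 window and the Casp1 window held no match to any motif searched. The Casp4 window held 3 kappaB matches, of which a pair overlap by all but 1 base, at 93 to 84 and 92 to 83 bases before the start, with the other at 39 to 30. Among 32851 such windows of 250 bases over all genes, 7.25% held a kappaB match on either strand. The other motifs searched on both strands were AP-1 (TGANTCA, in 6.75% of windows), the cyclic AMP response element (TGACGTCA, 1.55%), an interferon response motif (2.98%), PU.1 (GAGGAAGT, 2.44%) and C/EBP (TTGCNNAA, 9.56%). All 10 genes had a window in the table, 13 windows in all, and 7 windows held a match. Besides Nlrp3 and Casp4, Naip5 had a kappaB match, Nlrc4 and Pycard a C/EBP match, and Aim2 and Pycard a PU.1 match. A match is a description of the letters and not a site.

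Among the other sensors, Mefv was the most abundant and the remaining 3 were low. Mefv encodes pyrin, which responds when bacterial toxins inactivate RhoA, and stood at 39.8 FPKM in DP, 114.9 in nasal and 66 in blood neutrophils. Its log2 ratio was -1.51 for DP over nasal neutrophils, 0.79 for nasal over blood neutrophils and -0.72 for DP over blood neutrophils. Mefv was therefore highest in the library where Nlrp3 was highest, with a smaller difference, and Nlrp3 over Mefv was 0.589 in DP, 3.29 in nasal and 0.572 in blood neutrophils.

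Aim2, the sensor of double-stranded DNA in the cytosol, stood at 4.44 FPKM in DP, 4.19 in nasal and 7.06 in blood neutrophils. These values lie within 2-fold of each other. Naip5, which binds bacterial flagellin and then recruits NLRC4, stood at 3.4 FPKM in DP, 2.65 in nasal and 1.99 in blood neutrophils, also within 2-fold.

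Nlrc4, the partner that NAIP proteins recruit, was the lowest of the 10 genes in DP and nasal neutrophils. It stood at 0.573 FPKM in DP and 0.978 FPKM in nasal neutrophils, while blood neutrophils had a listed 0. With a transcript of 4729 nt these levels rest on about 148 fragments in DP and 59 in nasal neutrophils, so it was detected at low level in both nasal libraries. No ratio to blood neutrophils is given because a listed 0 can be a failed estimate, and its place there is not known. In blood neutrophils 91 genes were listed at 0 with 10 FPKM or more in both other libraries. Naip5 values rest on about 963, 176 and 560 fragments in DP, nasal and blood neutrophils. Of the 50-base windows in the Naip5 transcript, 36.8% occur in transcripts of other genes, 22.3% in Naip6, 14.5% in Naip3 and 13.8% in Naip1. The Naip5 level thus depends on how reads were divided among these close copies. For Nlrp3, Mefv, Pycard, Casp1, Casp4, Nod1 and Nod2 the share was 0%, and for Nlrc4 and Aim2 it was 1.13% and 0.789%. Exons of Pycard overlap those of Gm45205 on the opposite strand over 485 bases. Whether counting used the strand is not given in the sources used here, so reads of these 2 genes may not be separable.

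The adaptor was highest in the library where Nlrp3 was highest, and the caspases were highest in blood neutrophils. Pycard, which encodes ASC, stood at 8.74 FPKM in DP, 10.8 in nasal and 4.51 in blood neutrophils. It was lowest in blood neutrophils, with a log2 ratio of 1.1 for nasal over blood neutrophils and 0.82 for DP over blood neutrophils, though this second ratio was -0.13 when centred on the median of all genes. Between DP and nasal neutrophils the ratio was -0.27. Nlrp3 transcripts exceeded those of the adaptor in every library, at 2.68 times Pycard in DP, 35.1 times in nasal and 8.36 times in blood neutrophils.

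Casp1, which encodes the protease that matures IL-1 beta, stood at 15.7 FPKM in DP, 27.1 in nasal and 73.4 in blood neutrophils. It was highest in blood neutrophils, and its ratio was the lowest of the members for DP over blood neutrophils, at -2.16. The ratio was -1.4 for nasal over blood neutrophils and -0.75 for DP over nasal neutrophils. The DP value against blood neutrophils lies close to the 4-fold line and falls short of it, at -1.92, with a pseudocount of 5. Casp4 stood at 26.6 FPKM in DP, 60.2 in nasal and 70 in blood neutrophils. It was lowest in DP and nearly level between nasal and blood neutrophils, with log2 ratios of -1.15 for DP over nasal neutrophils, -0.21 for nasal over blood neutrophils and -1.36 for DP over blood neutrophils. Casp1 over Casp4 was 0.589 in DP, 0.45 in nasal and 1.05 in blood neutrophils. Such ratios within a library do not depend on how libraries were scaled.

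The peptidoglycan receptors differed from each other. Nod1, the receptor for diaminopimelic acid peptides, stood at 25.5 FPKM in DP, 40.3 in nasal and 27.6 in blood neutrophils, all within 2-fold. Nod2, the receptor for muramyl dipeptide, stood at 3.62 FPKM in DP, 9.85 in nasal and 14.4 in blood neutrophils. Nod2 was lowest in DP, with log2 ratios of -1.23 against nasal neutrophils and -1.73 against blood neutrophils, and -0.5 for nasal over blood neutrophils. Nod1 over Nod2 was 7.05 in DP, 4.1 in nasal and 1.92 in blood neutrophils, so Nod1 was the more abundant transcript in each library.

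The order of the 10 genes by level differed between libraries. In DP the order was Mefv, Casp4, Nod1, Nlrp3, Casp1, Pycard, Aim2, Nod2, Naip5 and Nlrc4. In nasal neutrophils Nlrp3 came first, followed by Mefv, Casp4, Nod1 and Casp1. In blood neutrophils Casp1, Casp4 and Mefv came first, at 73.4, 70 and 66 FPKM, and without replicates neighbours this close cannot be ordered. The 10 genes summed to 151.8 FPKM in DP, 649.4 in nasal and 302.6 in blood neutrophils. Nlrp3 made up 15.4% of that sum in DP, 58.3% in nasal and 12.5% in blood neutrophils. Without Nlrp3 the sums were 128.4 FPKM in DP, 271 in nasal and 264.9 in blood neutrophils. Outside Nlrp3 the summed level was thus close between nasal and blood neutrophils and lower in DP. Single members went both ways between nasal and blood neutrophils, with Mefv at 114.9 against 66 FPKM and Casp1 at 27.1 against 73.4 FPKM.

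**Figure D2:**
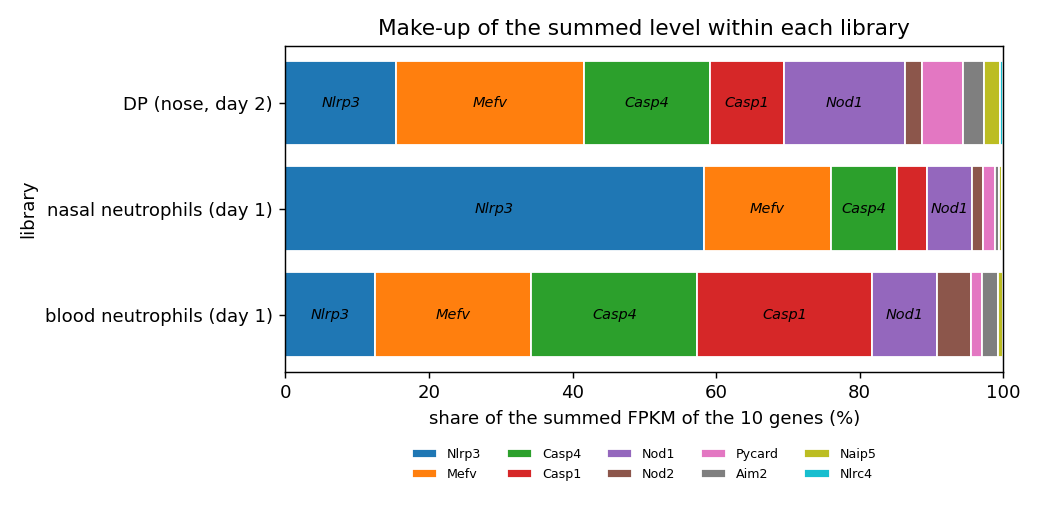
Share (%) of the summed FPKM of the 10 genes taken by each gene, with 1 bar for each library, DP at the top and blood neutrophils at the bottom. Nlrp3 takes 58.3% of the nasal neutrophil bar against 15.4% in DP and 12.5% in blood neutrophils, where Casp1 takes 24.3%.

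In DP against nasal neutrophils, 1 of the 9 tested members, Nlrp3, was lower by 4-fold or more and 0 were higher. Over all tested genes 3.62% were lower by this measure and 8.42% at least 4-fold higher. At 2-fold, 4 of 9 were lower (Nlrp3, Mefv, Nod2 and Casp4) and 0 higher, against 11.3% and 33.6% of tested genes. The median over the 9 members was -0.75, against 0.57 over all tested genes, and each of the 9 lay below 0.57. Relative to that median of all genes, the ratio was -4.53 for Nlrp3 and -2.08 for Mefv, which then also passed 4-fold. Gate and day both differ in this comparison and cannot be told apart. Over all tested genes 903 were higher and 388 lower, and with ratios centred on the median 360 were higher and 773 lower.

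In nasal against blood neutrophils, taken on the same day and with the same gate, 1 of 9 members, again Nlrp3, was higher by 4-fold or more and 0 were at least 4-fold lower. Over all tested genes 13.1% were higher by 4-fold or more and 3.23% at least 4-fold lower. At 2-fold Nlrp3 and Pycard were higher and Casp1 was lower, against 33.5% and 12.8% of tested genes. The count of higher members is near the share over all genes, and the median of the 9 was 0.29 against 0.41 over all tested genes. Over all tested genes 1408 were higher and 346 lower, and 968 and 609 with centred ratios.

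In DP against blood neutrophils, 1 of 9 members, Casp1, was lower by 4-fold or more and 0 were higher. Over all tested genes 3.57% were lower by this measure and 24.0% at least 4-fold higher. At 2-fold Casp1, Nod2 and Casp4 were lower and 0 members were higher, against 9.49% and 48.6% of tested genes. The median of the 9 was -0.66 against 0.95 over all tested genes, and each of the 9 lay below 0.95. The libraries differed in detection, with 11294 genes at 1 FPKM or more in DP and 7706 in blood neutrophils. Of 9 epithelial and olfactory markers, 8 were at least 4-fold higher in DP, 4 of them against a listed 0. How far such genes set the median and share over all genes was not tested. Relative to the median of all genes, Casp1 stood at -3.11, Nod2 at -2.69 and Casp4 at -2.31. Tissue, day and gate all differ in this comparison and cannot be told apart. Over all tested genes 2577 were higher and 383 lower, and 1116 and 971 with centred ratios.

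**Figure D3:**
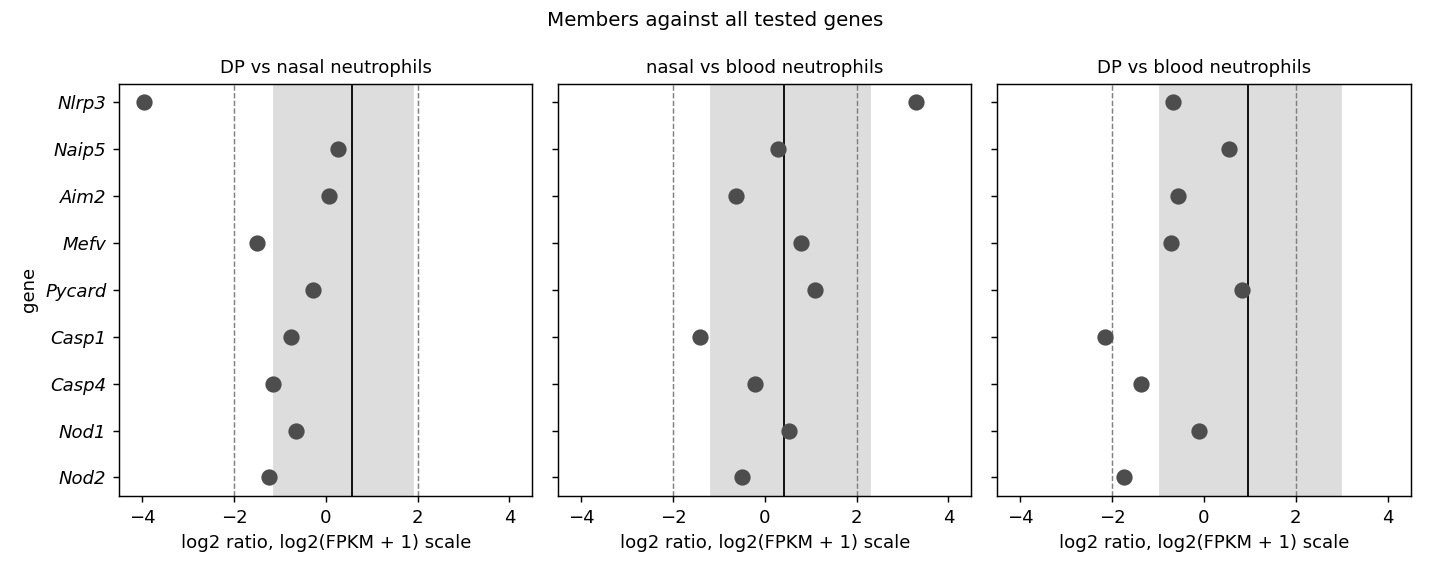
Log2 ratio, on the log2(FPKM + 1) scale, of the 9 members that passed the filter in the comparisons DP vs nasal neutrophils, nasal vs blood neutrophils and DP vs blood neutrophils. The grey band spans the central 80% of all tested genes, the black line is their median and dashed lines mark 4-fold. Nlrp3 lies at -3.96 in the first panel and 3.29 in the second, and Casp1 at -2.16 in the third.

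Markers of other cells moved with these comparisons, and their part in the values was not tested. Of 8 tested macrophage markers, 1 was at least 4-fold lower in DP than in nasal neutrophils. In nasal against blood neutrophils 4 were at least 4-fold higher, 3 of them against a listed 0. The 9 macrophage markers summed to 736 FPKM in DP, 1013 in nasal and 550.3 in blood neutrophils, with C1qa, C1qb, C1qc and Mrc1 at 0 in blood neutrophils. Of 6 tested monocyte and dendritic cell markers, 2 were at least 4-fold lower in DP than in nasal neutrophils and 2 at least 4-fold higher in nasal than in blood neutrophils. Their 7 genes summed to 93.6 FPKM in DP, 495.3 in nasal and 232.1 in blood neutrophils. The 4 B cell markers summed to 4.75, 42.8 and 63.1 FPKM in the DP, nasal and blood libraries, with 3 of 4 at least 4-fold lower in DP than in nasal neutrophils and 4 of 4 lower in DP than in blood neutrophils. The 5 T and NK cell markers summed to 13.9, 5.28 and 11.5 FPKM in the same order. The 9 epithelial and olfactory markers summed to 2259 FPKM in DP, 2012 in nasal and 1.57 in blood neutrophils, where 5 of them were at 0 (Epcam, Omp, Cnga2, Cyp2g1 and Foxj1). Of the 10 neutrophil markers, 5 were at least 4-fold lower in DP than in nasal neutrophils and 5 at least 4-fold lower in DP than in blood neutrophils, where 1, S100a8, was higher against a listed 0. In nasal against blood neutrophils 3 were at least 4-fold higher, S100a8 among them, and 3 at least 4-fold lower. Beside these marker counts, the shares of all tested genes higher and lower by 4-fold were 8.42% and 3.62% for DP against nasal neutrophils, 13.1% and 3.23% for nasal against blood neutrophils, and 24.0% and 3.57% for DP against blood neutrophils.

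The other genes of the pathway were read from 5 lists of 80 genes, of which 64 passed the filter. In DP against nasal neutrophils 2 of the 64 were higher by 4-fold or more and 8 at least 4-fold lower, against 8.42% and 3.62% of all tested genes, with a median of -0.46. In nasal against blood neutrophils 9 were higher by 4-fold or more and 3 at least 4-fold lower, against 13.1% and 3.23%, with a median of 0.67, and the higher count is near the share over all genes. In DP against blood neutrophils 6 were higher by 4-fold or more and 5 at least 4-fold lower, against 24.0% and 3.57%, with a median of 0.34, and the share higher is below that over all genes. The medians over all tested genes were 0.57, 0.41 and 0.95 in the same order.

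Among 21 other NLR and DNA sensors, 11 passed the filter. In DP against nasal neutrophils 1 of 11 was higher by 4-fold or more and 2 at least 4-fold lower, against 8.42% and 3.62% of all tested genes, with a median of -1.12. That median was -0.02 with no filter on low values and -1.85 with a pseudocount of 0.1. The count of lower sensors was 1 with a pseudocount of 5, 4 with a pseudocount of 0.1 or with libraries rescaled to one sum, and 5 with centred ratios or upper-quartile scaling. Nlrp1b, another sensor of the NLR family, stood at 5.17 FPKM in DP, against 0.54 FPKM in nasal and 2.14 FPKM in blood neutrophils. The nasal neutrophil value rests on about 29 fragments, and the DP ratio of 2.00 lies on the 4-fold line. Nlrp12, an NLR that is known to restrain NF-kappaB signalling, stood at 25 FPKM in DP, 16.3 in nasal and 128.4 in blood neutrophils. Nlrp3 over Nlrp12 was 0.936 in DP, 23.2 in nasal and 0.294 in blood neutrophils, so Nlrp12 was the more abundant of the pair in blood neutrophils and Nlrp3 in nasal neutrophils. Naip2, which binds a protein of bacterial secretion systems, stood at 20.6 FPKM in DP, 6.59 in nasal and 12.8 in blood neutrophils. Naip2 exceeded Naip5 in all 3 libraries, at 6.08, 2.49 and 6.4 times its level, though 19.4% of its 50-base windows are shared with other genes.

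Nlrc5, a regulator of MHC class I genes, stood at 0.945 FPKM in DP, 6.14 in nasal and 0.538 in blood neutrophils. Genes of the interferon-inducible family to which Aim2 belongs were at least 4-fold lower in DP than in nasal neutrophils for Ifi204 (14.9 against 95.3 FPKM) and Mnda (8.02 against 41.7 FPKM). Ifi205 stood at 4.75 FPKM in DP, 21.6 in nasal and 1.27 in blood neutrophils. Values within the family are uncertain, since 30.2% of the 50-base windows of Ifi204 and 49.6% of those of Ifi205 occur in other genes.

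The caspases, pore formers and products include Il1b, which was the most abundant of the 80 list genes in all 3 libraries. Of 9 tested genes of this group 0 passed 4-fold upwards and 1, Il1a, downwards in DP relative to nasal neutrophils, against 8.42% and 3.62% of all tested genes. Il1b, the precursor that caspase-1 cleaves, stood at 2931 FPKM in DP, 7513 in nasal and 2322 in blood neutrophils, and Il18 at 6.34, 13.8 and 11.3 FPKM. Il1b thus exceeded Il18 by 462, 543.7 and 206.2 times. Il1a, a related alarmin that needs no caspase-1, stood at 376.9 FPKM in DP, 2575 in nasal and 0.154 in blood neutrophils. Gsdmd, which encodes gasdermin D, was within 2-fold between DP and nasal neutrophils, at 33.5 FPKM in DP, 43.5 in nasal and 72.6 in blood neutrophils. The gene of gasdermin E, listed as Dfna5, stood at 23.8 FPKM in DP, 27.9 in nasal and 173.4 in blood neutrophils. It was at least 4-fold lower than in blood neutrophils both in DP (log2 ratio -2.82) and in nasal neutrophils (-2.59). Casp1 passed that line against blood neutrophils in DP only.

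Of 16 tested genes of priming and activation, 1 was higher by 4-fold or more and 1 at least 4-fold lower in DP than in nasal neutrophils, which is close to the 8.42% and 3.62% of all tested genes. The lower count was 0 with a pseudocount of 5 and 3 with centred ratios or upper-quartile scaling. Those settings also change the shares over all genes. Brcc3, which encodes a deubiquitinase that acts on NLRP3, stood at 50.3 FPKM in DP, against 5.17 FPKM in nasal and 2.86 FPKM in blood neutrophils. Its pattern was opposite to that of Nlrp3 between DP and nasal neutrophils. Gbp5, a guanylate-binding protein that promotes NLRP3 assembly, stood at 2.8 FPKM in DP, 17.3 in nasal and 0.834 in blood neutrophils. Nek7, the kinase that binds NLRP3, stood at 28.6 FPKM in DP, 9.49 in nasal and 7.79 in blood neutrophils. Gbp5 was thus high in nasal neutrophils, as Nlrp3 was, and Nek7 was highest in DP. Txnip, a redox protein that can bind NLRP3, stood at 71.7 FPKM in DP, 158.4 in nasal and 524.7 in blood neutrophils. Tmem173, which encodes the DNA pathway protein STING, stood at 13.5 FPKM in DP, 8.84 in nasal and 1.97 in blood neutrophils.

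Of 16 tested genes of NOD signalling and peptide transport, 0 passed 4-fold upwards and 2, Slc15a3 and Rnf31, downwards in DP relative to nasal neutrophils, against 8.42% and 3.62% of all tested genes. At 2-fold 3 were higher and 5 lower, against 33.6% and 11.3%. Ripk2, the kinase downstream of both receptors, stood at 3.48 FPKM in DP, 8.04 in nasal and 0.782 in blood neutrophils. Slc15a3, an endosomal transporter of peptides that include muramyl dipeptide, had the lowest ratio of the list, at 9.49 FPKM in DP, 111.7 in nasal and 19.6 in blood neutrophils. Slc15a2, another peptide transporter, ran the other way between DP and nasal neutrophils, at 15.6 FPKM in DP, 5.79 in nasal and 1.9 in blood neutrophils. Both transporters were higher in nasal than in blood neutrophils. Ripk2 and Slc15a3 were thus highest in the library where Nlrp3 was highest, whereas Slc15a2 was highest in DP. Rnf31, a subunit of the linear ubiquitin ligase, stood at 1.96 FPKM in DP, 12.1 in nasal and 7.61 in blood neutrophils. Card6, a CARD protein of less settled function, had 1.02 FPKM in DP, 3.67 in nasal and 11 in blood neutrophils.

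Of 12 tested inhibitors, 0 were higher by 4-fold or more and 2 at least 4-fold lower in DP than in nasal neutrophils, against 8.42% and 3.62% of all tested genes. These were Tnfaip3, a ubiquitin-editing brake on NF-kappaB, at 93.3 FPKM in DP, against 632.8 FPKM in nasal and 2.32 FPKM in blood neutrophils, and Serpinb1a, a protease inhibitor, at 5.21 FPKM against 43.4 and 18.8. In nasal against blood neutrophils 3 of 12 were higher by 4-fold or more and 1 lower, against 13.1% and 3.23% of all tested genes, with Il1rn, the IL-1 receptor antagonist, at 2146 against 370.5 FPKM and Irgm1, an immunity-related GTPase, at 131 against 22.2 FPKM besides Tnfaip3. Il1r2, a decoy receptor for IL-1, stood at 2740 FPKM in DP, 1996 in nasal and 565.5 in blood neutrophils. Ptpn22, a phosphatase, was lower in nasal than in blood neutrophils at 5.09 against 29.8 FPKM, with 16.1 FPKM in DP.

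**Figure D4:**
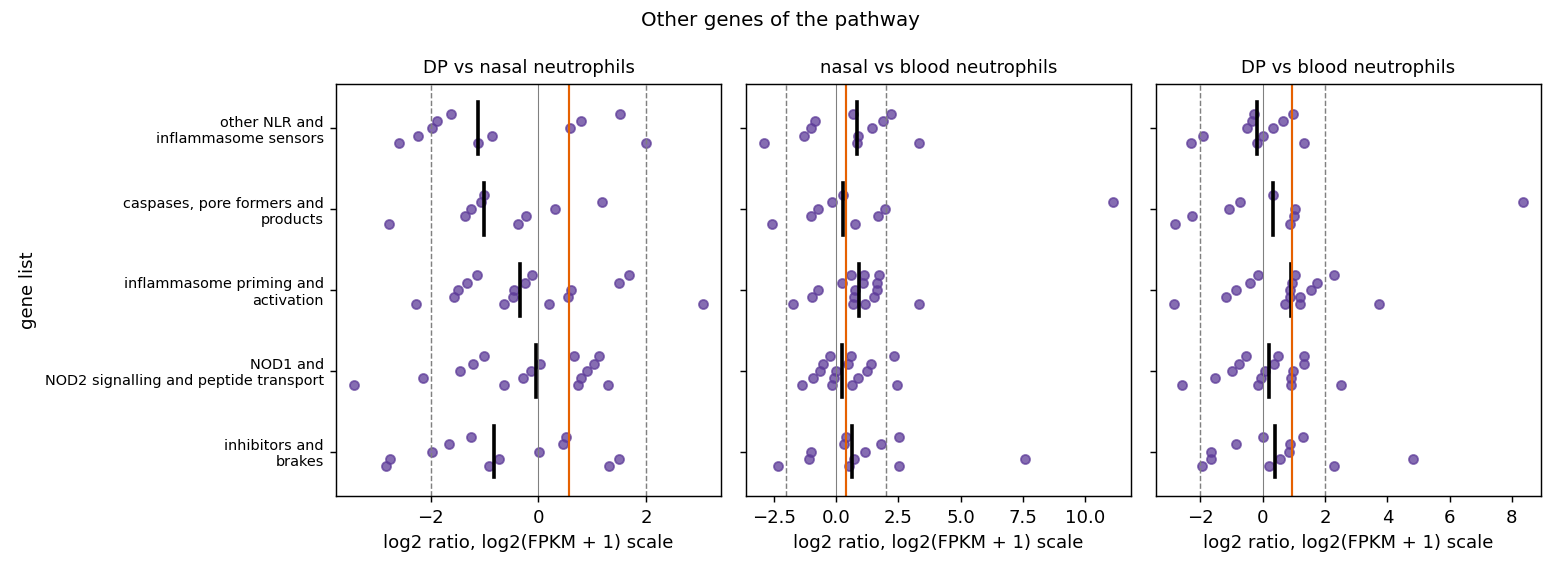
Log2 ratio, on the log2(FPKM + 1) scale, of the 64 other pathway genes that passed the filter, by list, in the comparisons DP vs nasal neutrophils, nasal vs blood neutrophils and DP vs blood neutrophils. Black bars are list medians, dashed lines mark 4-fold and the orange line is the median of all tested genes (0.57, 0.41 and 0.95). In the first panel all 5 list medians lie left of the orange line.

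The genes whose pattern over the 3 libraries was most like that of Nlrp3 were sought among 6252 genes with a mean of 5 FPKM or more. The measure was the Euclidean distance between log2(FPKM + 1) values, each gene centred on its own mean. The nearest was Ehd1, at 20.7 FPKM in DP, 350.4 in nasal and 34.1 in blood neutrophils (distance 0.04). Lars2 (distance 0.13) and Smox (distance 0.14) followed. With 3 points per gene such likeness is easily met and describes these libraries alone.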

How the data were processed

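The data are RNA-seq of 3 sorted populations of mouse cells, with 1 library each. The authors deposited 1 gene table per library, and its values were taken as FPKM, since the submitters' processing notes name Cufflinks 2.1.1 besides TopHat2 2.0.8, Bowtie2 2.1.0 and the mm9 genome. Their settings and annotation are not stated in these sources. Per the labels, cells were lysed in TRIzol LS and libraries made with a low-input kit. Because FPKM is a scaled estimate, count models were not applied.

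Groups came from the titles. Values above 0 and under 1e-06 FPKM (32 in DP, 20 in nasal and 43 in blood neutrophils) were set to 0. Ratios were differences of log2(FPKM + 1) over genes with a mean of 1 FPKM or more. With 1 library per group no test was possible. The members, the lists, the marker lists and the rule for naming genes were chosen with earlier results of these data known. Named were all members, list genes at least 4-fold apart in a comparison (up to 4 a list and comparison) and Gsdmd, Il1b, Il18, Il1a, Ripk2, Nek7 and Naip2. A list gene that the rule also named is not reported here. List genes were matched by symbol or RefSeq synonym, and all 80 had a row.

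Depth was estimated from a step, the low value times transcript length that held the most genes beyond those at 0.5 of it. This used genes that have a single GENCODE M21 transcript of over 1500 nt and a tolerance of 6%. At the step lay 62, 69 and 48 genes in DP, nasal and blood neutrophils, and at 0.5 of it 19, 7 and 3. Fragment numbers are therefore approximate and take the longest protein-coding transcript. Sequence windows of 50 bases were compared over GENCODE M21 transcripts, and upstream sequences came from RefSeq (GRCm38.p6), matched by symbol. The calling step was run on simulated data with an assumed noise and differences set well beyond 4-fold, which checks the code alone. Noise in the real libraries, which have no replicates, is not known from it. Python 3.11.15 with pandas 2.3.3 was used.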

Additional observations from a re-analysis of the deposited data

How the results depend on the processing

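No paired analysis was possible because each group has 1 library, and no replicate could be left out. The 4-fold calls of Nlrp3 in DP against nasal neutrophils (-4.59 to -3.75) and in nasal against blood neutrophils (2.85 to 3.4) kept their side under all 8 alternatives that gave a ratio. Over all members and alternatives 203 readings of a ratio kept their side of the 4-fold line and 10 crossed it: Casp1 in DP against blood neutrophils with a pseudocount of 5 (-1.92), and Mefv against nasal neutrophils and Casp4 and Nod2 against blood neutrophils under the 3 kinds of centring or scaling.

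For DP against nasal neutrophils, members lower numbered 2 with ratios centred on the median, with upper-quartile scaling and with centring on genes of similar length (chosen after seeing the data), and 4 at 2-fold. The member median was -1.38 with upper-quartile scaling and -1.58 with length centring. For DP against blood neutrophils, members lower numbered 0 with a pseudocount of 5, 3 under each centring or scaling and 3 at 2-fold, and the median was -1.62 centred, -1.54 with upper-quartile scaling and -1.56 with length centring. For nasal against blood neutrophils, 2 members were higher and 1 lower at 2-fold. Centring on the median takes the median of all genes from every ratio, 0.57 for DP against nasal and 0.95 for DP against blood neutrophils. A larger pseudocount shrinks ratios, and a lower threshold admits more genes. Why the medians of all genes differ between comparisons was not tested.

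Over the 64 list genes in DP against nasal neutrophils, 1 was higher and 5 lower with a pseudocount of 5, 1 higher with the filter at 5 FPKM, 1 higher and 16 lower when centred, and 1 and 17 with upper-quartile scaling (median -1.06). At 2-fold 11 were higher and 26 lower. In nasal against blood neutrophils 24 were higher and 10 lower at 2-fold. In DP against blood neutrophils 3 were lower with a pseudocount of 5, 3 higher and 12 lower when centred (median -0.61), 3 and 11 with upper-quartile scaling (median -0.46), and 17 and 12 at 2-fold.

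Over all genes in DP against nasal neutrophils, 1390 were higher with a pseudocount of 0.1, 441 higher and 203 lower with 5, 360 and 773 when centred, 349 and 732 with upper-quartile scaling, and 3600 and 1207 at 2-fold. In nasal against blood neutrophils 2886 were higher with a pseudocount of 0.1, 470 higher and 215 lower with 5, 609 lower when centred, and 3595 and 1372 at 2-fold. In DP against blood neutrophils 941 were higher with a pseudocount of 5, 1630 with the filter at 5 FPKM, 1116 and 971 when centred, 1551 and 819 with upper-quartile scaling, and 5214 and 1017 at 2-fold. Depth limits the low members most in nasal neutrophils.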
